A study of Mus musculus with 90 samples.

Results

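Skeletal muscle sarcomere genes code for the contractile apparatus of muscle fibres and for the proteins that feed it calcium and energy. A list of 38 such names was followed through 90 expression arrays of mouse melanoma, taking for each gene the probe set whose mean was highest. Of the 38 names, 37 had a probe set, out of 18193 genes measured. The entry "Cox6a2-free" is no gene symbol and was skipped. Of the 37 genes, 14 are typical of fast fibres, 8 of slow fibres, and 15 belong to both.

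All samples were subcutaneous melanoma allografts from B6.cBrd mice, and every group shares the genotype Hgftg;Cdk4R24C/R24C, an Hgf transgene combined with a homozygous R24C change of Cdk4. Ages and the promoter of the transgene are not given in the sources used here. Tumours received PBS at 10 ml/kg (7 arrays), a control IgG at 10 mg/kg (22 arrays), or an antibody against mouse PD-L1, an IgG1 with the D265A change, at 10 mg/kg per the labels. The design text also names 20 mg/kg for both antibodies. Tumours given anti-PD-L1 are grouped by how they grew. Responder tumours (27) lost at least 5% of their volume and were harvested following 2 to 12 doses, and NonResponder tumours (23) went on growing until comparable time points. Relapse tumours (6) had become unmeasurable and were taken when they regrew after 4 to 10 doses. GrowthDelay (2) stands for tumours that appeared only after treatment, and Stabilization (3) for tumours of treated mice whose volume stood still between measurements. Nothing in the labels says that each array is a separate mouse, so p-values measure the spread between these samples, which may be technical.

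A muscle fibre contracts when myosin heads of the thick filament pull on the actin of the thin filament. Calcium released from the sarcoplasmic reticulum frees the actin through troponin and tropomyosin, and the filaments are anchored at the Z disc. Fast fibres use the myosins Myh1, Myh2 and Myh4 and contract quickly. Many of them rely on glycolysis, but those with Myh2 have many mitochondria. Slow fibres use Myh7 and are built for endurance. A thin sheet of striated muscle lies beneath the skin of the mouse.

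Of 8 melanocyte genes, the melanosome gene Pmel had a median log2 level of 11.76 and the neural crest factor Sox10 one of 11.65. The probe set of Tyr, the enzyme of melanin synthesis, was low throughout (median 3.58, highest 4.09), and that of Gpr143 had a median of 6.19; Tyr is named after its values were seen. Across the 90 arrays, medians over all probe sets lay between 5.71 and 5.90 on the log2 scale, and the average correlation of each array to all other arrays between 0.901 and 0.984. This correlation was unusually low for 7 arrays, Responder 4, 20 and 21, NonResponder 14, Stabilization 1 and 2 and PBS 5, where the number after a group name only identifies an array. The titles fall into 4 number ranges, called title series here: a larger one (53 arrays), a smaller one (25 arrays), one of 8 control IgG arrays alone and one of 4 PBS arrays alone. What these ranges stand for is not given in the sources used here.

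Most of the muscle genes were near the bottom of their range in most arrays and very high in a few. Over the 90 arrays, the median range of the 37 genes was 8.30 on the log2 scale, against 1.45 for all 18193 genes. A range of 6 or more was found for 33 of the 37, and for 249 genes (1.37%) in the whole data set. Because these are bulk samples, more muscle cells and more RNA per muscle cell cannot be told apart.

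Genes from both ends of the pattern were the skeletal actin Acta1, at least 2 above its own median on the log2 scale (4-fold, called raised here) in 31 arrays, the fastest myosin heavy chain Myh4 in 29, and the slow myosin heavy chain Myh7 in 5. Their promoters are shown because these 3 genes stand for the shared, fast and slow classes. The sequences are the 250 bases before the start of the gene in RefSeq on GRCm38.p6, read 5′ to 3′ on the strand of the gene. They lie at chr8:123894776-123895025 on the minus strand for Acta1, chr11:67237562-67237811 on the plus strand for Myh4, and chr14:54994550-54994799 on the minus strand for Myh7, the downstream one of 2 start windows listed for that gene. Capitals mark the E-box motifs CAGCTG and CACCTG (on either strand, so that CACCTG may read CAGGTG), the motifs known as MEF2 and CArG (either strand), and TATAAA on the strand of the gene.
Acta1: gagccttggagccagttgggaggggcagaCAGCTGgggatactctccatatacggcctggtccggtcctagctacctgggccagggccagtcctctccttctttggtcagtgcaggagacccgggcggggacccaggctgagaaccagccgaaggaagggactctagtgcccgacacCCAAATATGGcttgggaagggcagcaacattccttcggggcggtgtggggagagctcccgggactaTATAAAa
Myh4: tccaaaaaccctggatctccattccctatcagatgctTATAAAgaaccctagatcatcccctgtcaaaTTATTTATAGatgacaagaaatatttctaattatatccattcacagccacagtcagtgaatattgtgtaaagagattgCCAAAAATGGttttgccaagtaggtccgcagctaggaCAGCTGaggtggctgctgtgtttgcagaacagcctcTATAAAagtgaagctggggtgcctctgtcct
Myh7: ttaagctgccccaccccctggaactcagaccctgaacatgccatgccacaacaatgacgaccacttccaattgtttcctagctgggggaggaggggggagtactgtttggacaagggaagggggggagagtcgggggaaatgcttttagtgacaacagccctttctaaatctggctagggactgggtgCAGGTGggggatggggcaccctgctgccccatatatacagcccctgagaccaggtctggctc
In the Acta1 window a CAGCTG begins at -221, a CArG motif at -73 and TATAAA at -7, counted from the start of the gene. The Myh4 window holds TATAAA at -213 and -31, a MEF2 motif at -182, a CArG motif at -104 and CAGCTG at -67. The Myh7 window holds a single match, CACCTG at -62, and the upstream window of that gene (not shown) holds none. RefSeq promoters were at hand for 30 of the 37 genes, and CAGCTG was found in 15 of them (50%), against 14.72% of the 27025 genes with a window of this length. CACCTG was found in 9 (30% against 19.43%), the MEF2 motif in 6 (20% against 3.42%), the CArG motif in 4 (13.33% against 1.62%) and TATAAA in 4 (13.33% against 8.94%). CAGCTG was present in 5 of 10 fast, 3 of 8 slow and 7 of 12 shared genes with a promoter, and the MEF2 motif in 3, 1 and 2 of them. A match shows only that the letters are there.

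To say which arrays carry the set, an array was taken to carry it where at least 19 of the 37 genes were raised. These arrays are described without a test, because they are chosen by the measured values. There were 13 such arrays, and they came from every group except GrowthDelay. Responder 21 led with 36 genes and a mean over the 37 genes of 12.47, followed by Responder 14 with 33 genes (mean 10.55), Stabilization 2 with 31 (9.72) and NonResponder 3 with 29 (8.96). Responder 22 had 27 genes (mean 9.47), NonResponder 1 had 26 (8.71), and control IgG 7 and control IgG 1 had 25 each (8.84 and 8.73). PBS 1 had 24 genes (8.46), NonResponder 9 had 23 (8.56) and Relapse 2 had 20 (8.23). NonResponder 8 and control IgG 3 were just inside with 19 genes each, and NonResponder 21, Responder 25 and Responder 6 just outside with 18. The transition was gradual: 22 arrays had at least 10 of the genes raised, and 22 carried the set when 1 above the median was asked for instead of 2, but 8 did so when 3 was asked for. The groups represented depend on the rule as well. When 3 was asked for, no PBS and no Relapse array carried the set. With the mean of all probe sets of a gene, no Relapse array did.

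By group, the set was carried by 1 of 7 PBS arrays, 3 of 22 control IgG, 3 of 27 Responder, 4 of 23 NonResponder, 1 of 6 Relapse, 0 of 2 GrowthDelay and 1 of 3 Stabilization arrays. The mean over the 37 genes ran from 5.58 to 8.46 in PBS (median 5.65), from 5.39 to 8.84 in control IgG (median 5.60) and from 5.20 to 12.47 in Responder (median 5.43). In NonResponder it ran from 5.35 to 8.96 (median 5.56) and in Relapse from 5.34 to 8.23 (median 5.56). The GrowthDelay arrays stood at 5.45 and 6.74, and the Stabilization arrays at 5.38, 6.46 and 9.72. All groups thus overlapped. The medians of the 5 larger groups were close together, and those of GrowthDelay (6.09) and Stabilization (6.46), each of at most 3 arrays, were higher.

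**Figure D1:**
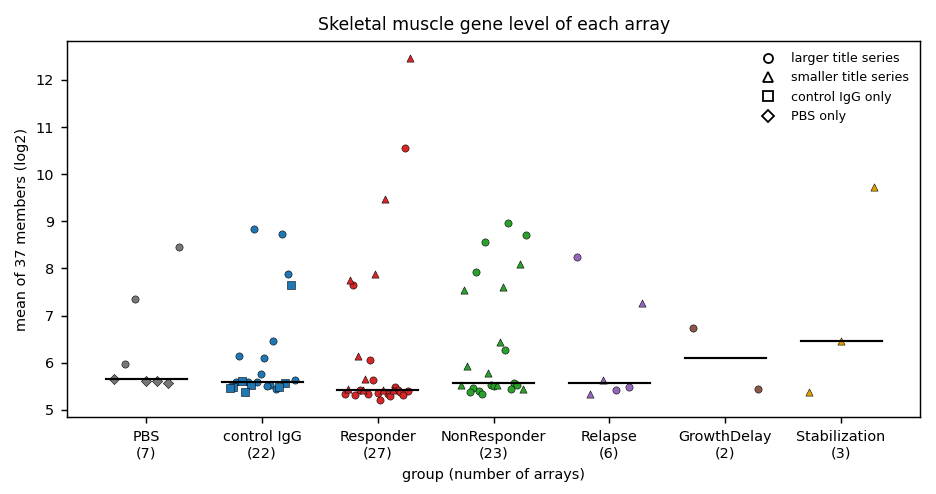
Mean log2 level of the 37 muscle genes (vertical axis) in each of 90 arrays by group, with the number of arrays under each name, symbols for the title series and a line at the group median. Most arrays of every large group sit between 5.20 and 6, and single arrays rise to 12.47 in Responder and 9.72 in Stabilization.

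Within the title series the carrying arrays were spread differently. In the larger series 4 of 14 NonResponder, 1 of 17 Responder, 3 of 14 control IgG, 1 of 3 PBS and 1 of 3 Relapse arrays carried the set. In the smaller series these were 0 of 9 NonResponder, 2 of 10 Responder, 1 of 3 Stabilization and 0 of 3 Relapse arrays. None of the 8 control IgG arrays and none of the 4 PBS arrays of the remaining series did. The PBS arrays did not overlap between series: the 3 of the larger series had means of 5.98, 7.34 and 8.46, and the 4 of the PBS series lay between 5.58 and 5.65.

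**Figure D2:**
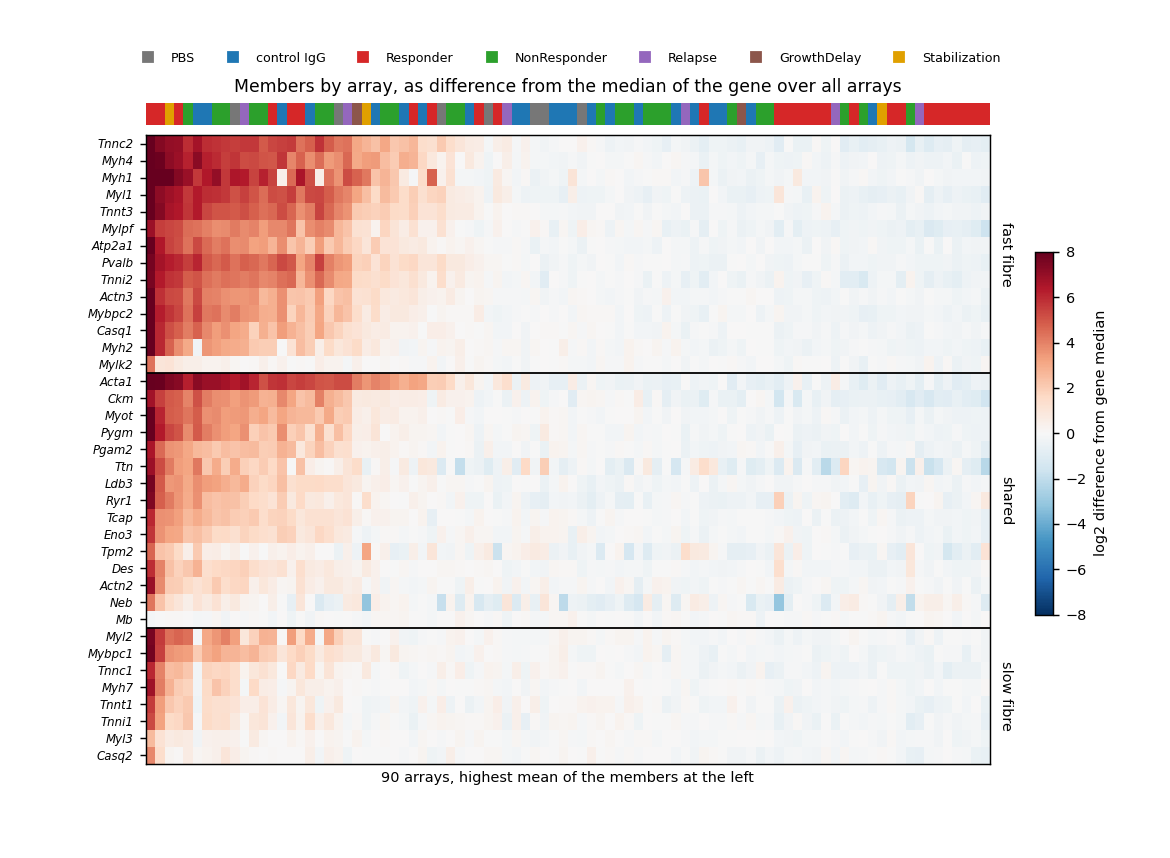
Difference of each of the 37 genes (rows, by fibre class) from its own median over the 90 arrays, in log2 units by colour, with arrays (columns) ordered by their mean over the genes and the group of each array in the bar above. Fast and shared genes are high in the arrays at the left, slow genes in fewer of them, and the row of Mb is flat.

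The thick filament was represented by 11 genes, each at least 2 above its median in 1 to 29 arrays. Myh4, the myosin heavy chain of the fastest fibres, ran from 3.34 to 9.43 in PBS (median 3.54), from 3.35 to 10.88 in control IgG (median 3.76), from 3.12 to 13.08 in Responder (median 3.49), from 3.02 to 9.85 in NonResponder (median 3.72) and from 3.37 to 8.92 in Relapse (median 3.87). It stood at 3.34 and 6.73 in GrowthDelay and at 3.27, 7.0 and 10.86 in Stabilization. Every group thus held arrays near 3 and arrays many times higher, and no group stood apart. Myh1, the myosin of fast fibres of intermediate speed, ran from 2.64 to 9.61 in PBS (median 2.97), from 2.67 to 9.51 in control IgG (median 3.08), from 2.82 to 12.31 in Responder (median 3.01), from 2.80 to 10.13 in NonResponder (median 3.20) and from 2.85 to 9.45 in Relapse (median 3.20). It stood at 2.91 and 7.84 in GrowthDelay and at 2.80, 7.31 and 11.21 in Stabilization. Myh1 was at least 2 above its median in 27 arrays and in 12 of the 13 that carry the set, the exception being control IgG 3 with 3.52.

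Myh2, the myosin of fast fibres with many mitochondria, ran from 4.57 to 7.51 in PBS (median 4.70), from 4.04 to 8.08 in control IgG (median 4.49), from 3.92 to 12.76 in Responder (median 4.32), from 4.17 to 7.82 in NonResponder (median 4.72) and from 4.08 to 7.36 in Relapse (median 4.51). It stood at 4.18 and 6.05 in GrowthDelay and at 4.33, 5.09 and 9.26 in Stabilization. It was raised by 2 or more in 12 arrays, fewer than Myh1 or Myh4. The slow myosin Myh7 ran from 4.69 to 6.33 in PBS (median 5.08), from 4.54 to 6.44 in control IgG (median 4.91), from 4.56 to 11.67 in Responder (median 4.88), from 4.53 to 7.17 in NonResponder (median 4.94) and from 4.67 to 5.06 in Relapse (median 4.73). It stood at 4.89 and 5.03 in GrowthDelay and at 4.80, 4.87 and 7.66 in Stabilization. Only 5 arrays were 2 or more above its median, Responder 21, 14 and 22, Stabilization 2 and NonResponder 1, all of which carry the set.

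**Figure D3:**
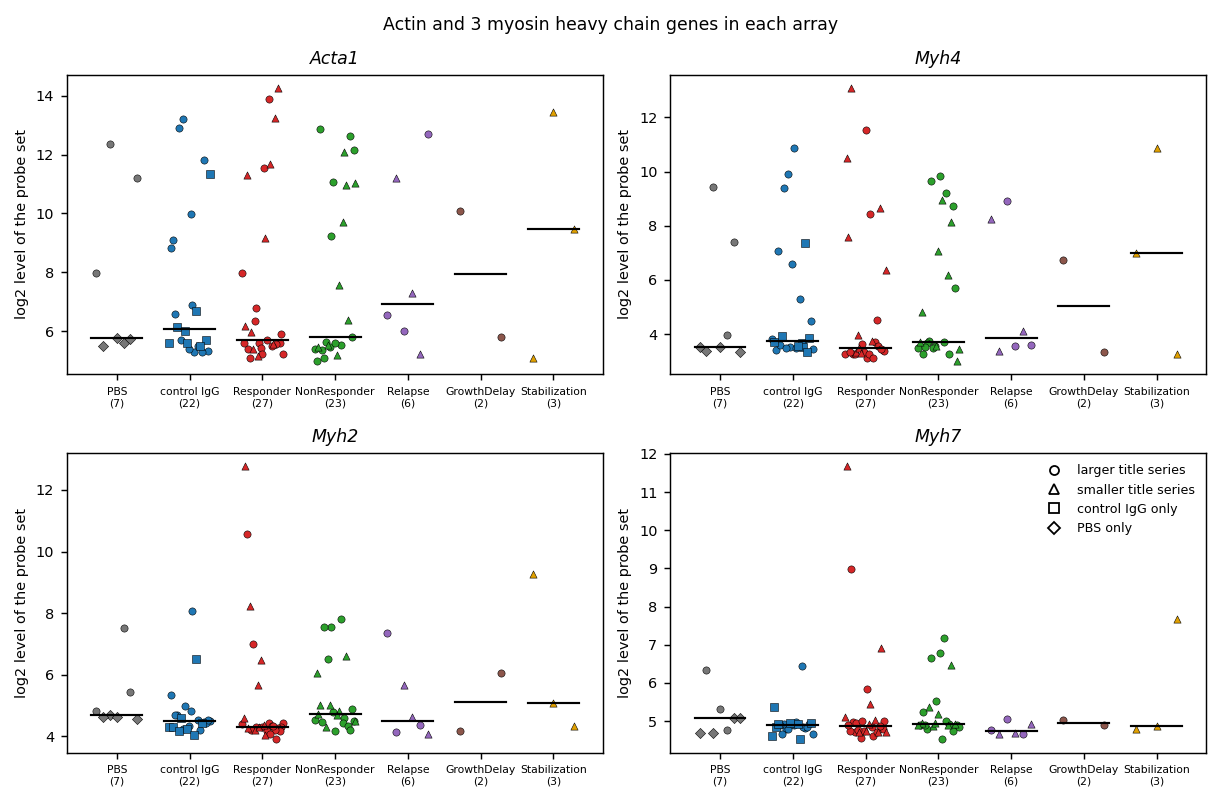
Log2 level of the probe sets of Acta1, Myh4, Myh2 and Myh7 (vertical axes) in each array by group, with symbols for the title series and a line at the group median. Acta1 and Myh4 are raised in arrays of every group, and Myh7 exceeds 8 in 2 Responder arrays (11.67 and 8.98).

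Among the light chains, Mylpf, the regulatory light chain of fast myosin, ran from 6.53 to 10.79 in PBS (median 7.14), from 6.05 to 10.99 in control IgG (median 6.63), from 4.96 to 13.46 in Responder (median 6.26), from 5.89 to 11.08 in NonResponder (median 6.78) and from 5.99 to 10.41 in Relapse (median 6.37). It stood at 6.15 and 7.84 in GrowthDelay and at 6.28, 7.81 and 11.98 in Stabilization. Myl2, the regulatory light chain of slow and cardiac myosin, ran from 3.66 to 7.13 in PBS (median 4.03), from 3.58 to 6.96 in control IgG (median 3.82), from 3.39 to 11.44 in Responder (median 3.80), from 3.17 to 8.26 in NonResponder (median 4.05) and from 3.52 to 4.86 in Relapse (median 3.72). Its GrowthDelay values were 3.75 and 4.84, and its Stabilization values 3.73, 3.78 and 8.22, so that Relapse and GrowthDelay stayed below 5 although Mylpf exceeded 10 in Relapse. Mylpf was raised by 2 or more in 22 arrays and Myl2 in 14. Of the others, the essential light chain Myl1 of fast fibres was raised in 26 arrays and reached 13.27, the myosin-binding protein Mybpc2 of fast fibres in 20 and its slow counterpart Mybpc1 in 13. The slow light chain Myl3 (highest 8.75) and the myosin light chain kinase Mylk2 (highest 9.48) were raised in Responder 21 alone.

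The thin filament was represented by 9 genes, raised by 2 or more in 2 to 31 arrays each. Acta1, the actin of skeletal muscle, ran from 5.49 to 12.35 in PBS (median 5.75), from 5.30 to 13.21 in control IgG (median 6.06), from 5.08 to 14.26 in Responder (median 5.68), from 4.99 to 12.85 in NonResponder (median 5.80) and from 5.22 to 12.69 in Relapse (median 6.92). It stood at 5.78 and 10.07 in GrowthDelay and at 5.09, 9.48 and 13.46 in Stabilization. The highest Acta1 level was 311-fold above the median of the 90 arrays, and 31 arrays from all 7 groups were at least 4-fold above it. Tnnt3, the fast form of the troponin subunit that binds tropomyosin, ran from 4.61 to 9.81 in PBS (median 4.95), from 4.41 to 11.24 in control IgG (median 4.91), from 4.41 to 14.18 in Responder (median 4.77), from 4.46 to 10.65 in NonResponder (median 4.93) and from 4.64 to 10.04 in Relapse (median 4.96). It stood at 4.50 and 7.01 in GrowthDelay and at 4.84, 6.90 and 11.51 in Stabilization. The slow form Tnnt1 ran from 5.73 to 7.20 in PBS (median 6.56), from 5.62 to 7.57 in control IgG (median 6.12), from 5.45 to 11.71 in Responder (median 5.93), from 5.63 to 8.19 in NonResponder (median 6.11) and from 5.58 to 6.66 in Relapse (median 5.98). Its GrowthDelay values were 6.04 and 6.15 and its Stabilization values 5.76, 6.00 and 8.25. Tnnt3 was raised by 2 or more in 24 arrays and Tnnt1 in 4.

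The inhibitory troponin subunits followed the same order. Tnni2, the fast form, ran from 5.06 to 10.26 in PBS (median 5.94), from 5.54 to 11.02 in control IgG (median 5.97), from 5.11 to 13.53 in Responder (median 5.70), from 4.75 to 10.79 in NonResponder (median 6.24) and from 5.31 to 10.06 in Relapse (median 5.78). It stood at 5.45 and 7.47 in GrowthDelay and at 5.82, 7.45 and 11.73 in Stabilization. Tnni1, the slow form, ran from 5.55 to 6.62 in PBS (median 6.06), from 5.21 to 7.38 in control IgG (median 5.82), from 5.16 to 11.15 in Responder (median 5.81), from 4.98 to 8.01 in NonResponder (median 5.97) and from 5.18 to 6.03 in Relapse (median 5.53). Tnni1 was 5.77 and 5.96 in GrowthDelay and 5.50, 5.72 and 7.37 in Stabilization, and 3 arrays were raised by 2 or more, against 22 for Tnni2. For troponin C, the calcium sensor, the counts were 30 arrays for the fast Tnnc2 and 5 for the slow Tnnc1.

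Tpm2, the beta form of tropomyosin, which smooth muscle also makes, had a pattern of its own. It ran from 7.56 to 8.79 in PBS (median 8.51), from 7.41 to 10.12 in control IgG (median 7.94), from 6.33 to 12.70 in Responder (median 8.07), from 6.70 to 9.02 in NonResponder (median 8.0) and from 7.94 to 9.46 in Relapse (median 8.13). It stood at 7.32 and 7.64 in GrowthDelay and at 8.19, 10.15 and 11.21 in Stabilization. Its second-highest value of all 90 arrays, 11.21, was in Stabilization 1, which does not carry the set and where the smooth muscle and pericyte genes averaged 1.43 above their medians, 3 of 10 of them by 2 or more. In control IgG 7, where Tpm2 was 10.12, these genes averaged 1.39 above their medians and 4 of 10 were raised by 2 or more. The part of smooth muscle in the Tpm2 values was not tested. Nebulin (Neb), the giant protein along the actin filament, was raised by 2 or more in Responder 21 and Responder 14 alone, and was lowest in Stabilization 1 at 4.49.

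At the Z disc and along the elastic scaffold, 7 genes were raised by 2 or more in 4 to 21 arrays. Titin (Ttn), the spring that spans the sarcomere, ran from 5.39 to 9.44 in PBS (median 6.55), from 5.12 to 10.69 in control IgG (median 6.56), from 4.25 to 13.34 in Responder (median 6.10), from 4.59 to 9.60 in NonResponder (median 6.50) and from 5.36 to 8.36 in Relapse (median 6.90). It stood at 6.38 and 7.92 in GrowthDelay and at 5.20, 5.86 and 10.62 in Stabilization. Titin was raised in 12 arrays, 11 of which carry the set. Desmin (Des), the intermediate filament that ties neighbouring Z discs together, ran from 6.67 to 8.74 in PBS (median 7.17), from 6.54 to 9.79 in control IgG (median 7.06), from 6.70 to 12.93 in Responder (median 6.93), from 6.71 to 9.16 in NonResponder (median 7.01) and from 6.70 to 8.96 in Relapse (median 6.94). It stood at 6.96 and 7.27 in GrowthDelay and at 6.58, 7.75 and 9.34 in Stabilization. Desmin was raised by 2 or more in 5 arrays, all carrying the set, and by 1 or more in 16. The Z disc proteins Actn3 (alpha-actinin of fast fibres) and Myot (myotilin) were raised in 21 arrays each, and Actn2, the alpha-actinin of all fibres, in 4. Ldb3 was raised in 12 and the titin cap Tcap in 11.

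Calcium handling was represented by 5 genes. Atp2a1, the calcium pump of fast fibres, ran from 5.67 to 9.91 in PBS (median 6.19), from 5.79 to 11.49 in control IgG (median 6.19), from 5.68 to 14.28 in Responder (median 6.08), from 5.76 to 10.54 in NonResponder (median 6.25) and from 5.69 to 9.96 in Relapse (median 6.19). It stood at 5.98 and 7.86 in GrowthDelay and at 5.90, 7.19 and 11.60 in Stabilization. The group medians of Atp2a1 in these 5 groups differed by less than the spread within any of them. Pvalb, the calcium buffer parvalbumin of fast fibres, ran from 5.92 to 10.73 in PBS (median 6.50), from 5.88 to 12.43 in control IgG (median 6.26), from 5.79 to 14.01 in Responder (median 6.20), from 5.92 to 11.90 in NonResponder (median 6.45) and from 6.01 to 11.12 in Relapse (median 6.32). It stood at 6.37 and 8.13 in GrowthDelay and at 6.08, 8.24 and 12.64 in Stabilization. Both genes were raised by 2 or more in 22 arrays.

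Calsequestrin, the calcium store of the reticulum, comes in a fast form, Casq1, and a slow and cardiac form, Casq2. Casq1 ran from 4.91 to 8.11 in PBS (median 5.16), from 4.55 to 9.73 in control IgG (median 5.00), from 4.51 to 13.41 in Responder (median 4.91), from 4.53 to 9.10 in NonResponder (median 5.04) and from 4.43 to 7.96 in Relapse (median 4.67). It stood at 4.99 and 6.07 in GrowthDelay and at 4.72, 5.76 and 10.15 in Stabilization. Casq2 ran from 5.91 to 6.67 in PBS (median 6.29), from 5.87 to 6.63 in control IgG (median 6.15), from 5.54 to 9.98 in Responder (median 6.07), from 5.56 to 7.10 in NonResponder (median 6.17) and from 5.47 to 6.37 in Relapse (median 5.96). Its GrowthDelay values were 5.89 and 6.19 and its Stabilization values 6.12, 6.22 and 6.34, so that Casq2 was raised by 2 or more in 1 array, Responder 21, against 18 arrays for Casq1. The calcium release channel Ryr1 was raised in 11 arrays, all carrying the set.

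Energy and oxygen supply were represented by 5 genes. Ckm, the muscle creatine kinase, ran from 7.07 to 10.71 in PBS (median 7.70), from 6.54 to 12.55 in control IgG (median 7.55), from 5.88 to 14.15 in Responder (median 6.87), from 6.17 to 11.46 in NonResponder (median 7.61) and from 6.53 to 11.02 in Relapse (median 6.94). It stood at 6.67 and 8.18 in GrowthDelay and at 6.81, 8.21 and 12.37 in Stabilization. The Responder group thus held both the highest and the lowest Ckm level. Eno3, the muscle enolase of glycolysis, ran from 8.27 to 9.41 in PBS (median 8.56), from 7.54 to 10.51 in control IgG (median 8.19), from 7.47 to 13.87 in Responder (median 7.94), from 7.67 to 10.33 in NonResponder (median 8.14) and from 7.74 to 9.92 in Relapse (median 7.92). It stood at 7.92 and 8.01 in GrowthDelay and at 7.70, 8.14 and 11.30 in Stabilization. Ckm was raised by 2 or more in 22 arrays and Eno3 in 7. The glycogen phosphorylase Pygm was raised in 17 and the phosphoglycerate mutase Pgam2 in 16.

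Myoglobin (Mb), which stores oxygen, was the exception. Its probe set of highest mean ran from 6.25 to 6.49 in PBS (median 6.37), from 6.13 to 6.77 in control IgG (median 6.43), from 6.06 to 6.64 in Responder (median 6.38), from 6.05 to 6.75 in NonResponder (median 6.46) and from 6.07 to 6.52 in Relapse (median 6.41). It stood at 6.36 and 6.51 in GrowthDelay and at 6.22, 6.49 and 6.63 in Stabilization. It was raised by 2 or more in no array and spanned 0.72 over all 90. The second probe set of Mb, with a slightly lower mean (6.19 against 6.41), spanned 8.61, reached 13.59 and was raised in 18 arrays, 11 of which carry the set. Values of Mb therefore depend on the probe set. The probe sets of 12 genes could be compared in this way. For Tpm2 the number of raised arrays was 5, 5, 2 and 17 in its 4 probe sets, and for Myl3 it was 1, 0 and 5 in its 3.

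On average, fast fibre genes stood further above their medians than slow ones in each of the 13 arrays that carry the set. These arrays were chosen by the same values, under a rule that counts 14 fast genes but 8 slow ones. The order of fast and slow genes is therefore in part built into the choice of arrays. Probe sets have no common scale, so the mean over the 14 fast genes and over the 8 slow genes is given as the difference of each gene from its own median, and is no ratio of transcripts. The difference between the means was 2.38 in Responder 21 (8.05 against 5.67) and 2.78 in Responder 14 (6.31 against 3.53), and it was largest in control IgG 7, at 4.78 (4.90 against 0.12). Over the 90 arrays, fast genes were raised by 2 or more in 1 to 30 arrays (median 22), shared genes in 0 to 31 (median 11) and slow genes in 1 to 14 (median 4.5). Averaging all probe sets of a gene left fast above slow in all 13, with differences between 1.85 and 4.41.

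Control IgG 7 and control IgG 3 carried fast genes with most slow genes near their medians. The exception was Mybpc1, at 2.02 above its median in control IgG 7 and 0.95 in control IgG 3. In control IgG 7, Acta1 stood 7.23 and Myh4 7.19 above the median, whereas Myh2 was at -0.28, Myh7 at -0.25, Myl2 at -0.11 and Tnnt1 at -0.32. In control IgG 3 the values were 5.84 for Acta1 and 5.71 for Myh4, against -0.04 for Myh2, -0.08 for Myh7 and 0.07 for Myl2. Fast and slow genes were thus not raised in a fixed proportion. PBS 1, with a lower Acta1 (6.37) and Myh4 (5.74) than control IgG 7, had 2.99 for Myh2, 1.42 for Myh7 and 3.30 for Myl2. Relapse 2 lay between, with 2.85 for Myh2, -0.13 for Myh7 and 0.91 for Myl2. Among arrays with 14 to 16 genes raised, which do not carry the set, NonResponder 17 and Relapse 4 also had a high fast mean (3.53 and 2.81) and a low slow mean (0.15 and 0.18), whereas Responder 24 and NonResponder 22 had 3.44 and 3.09 for fast and 1.12 and 0.95 for slow genes.

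**Figure D4:**
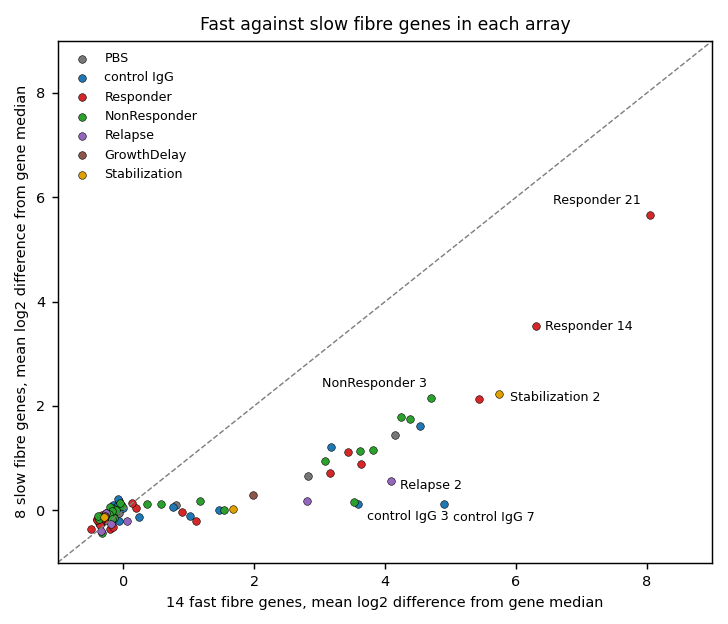
Mean log2 difference from the gene median over 14 fast fibre genes (horizontal axis) and 8 slow fibre genes (vertical axis) in each array, coloured by group, with a dashed line where both are equal. All 13 arrays that carry the set lie below the line, Responder 21 reaches 8.05 and 5.67, and control IgG 7 and control IgG 3 have slow means of 0.12.

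Responder 21 was the array with the highest value for 36 of the 37 genes. There Myh4 was 674-fold above its median, Tnnt3 617-fold, Myh1 586-fold and Myh7 108-fold. It also had the lowest mean correlation with other arrays, 0.901, and its 8 melanocyte genes averaged -3.49 against their medians, with -5.10 for Pmel, -4.23 for the melanocyte antigen Mlana and -4.07 for Sox10. Melanocyte genes were also far below their medians in 2 arrays without the muscle set, Responder 20 (-3.43) and Stabilization 1 (-3.24). In the other carrying arrays the mean of the melanocyte genes ran from -1.19 in Stabilization 2 to 0.50 in PBS 1. The part of tumour content in the muscle values was not tested.

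Other genes of skeletal muscle, from lists outside the 37, were raised in carrying arrays to very different extents. The triadin gene Trdn, of the calcium release complex, was raised by 2 or more in 20 arrays, the Z disc gene Myoz1 in 19 and the sarcomere assembly gene Klhl41 in 18, each including all 13 that carry the set. The M band gene Myom1, the Z disc-associated Cmya5 and the AMP deaminase Ampd1 of muscle were raised in 10 arrays each, all carrying the set. Cox6a2, the muscle subunit of cytochrome oxidase, was raised in 4, all carrying the set, and was highest in Responder 21. Of 13 further Z disc and M band genes measured, 11 were raised in at least 1 array, as were 12 of 16 excitation and membrane genes, 11 of 15 energy genes and 6 of 9 further fibre-type genes. Raised in 7 or more carrying arrays were 3 of the 13, 1 of the 16, 2 of the 15 and 1 of the 9, and raised in no carrying array were 2, 4, 4 and 3 of them.

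Genes of 3 further lists, of regenerating fibres, of myogenic regulators and of the heart, were raised in few arrays. Responder 21 had Myh3, the embryonic myosin, at 4.81 above its median, and Myh8, the perinatal one, at 4.75. It also had Myog, a regulator of muscle differentiation, at 4.74, Myf6, another such regulator, at 5.93 and the cardiac and fetal actin Actc1 at 6.59. No other array had Myog or Myh3 raised, and Myh8, Myf6 and Actc1 were raised in 2 arrays each, both carrying the set. Many genes of the same lists were not raised. Raised in no carrying array, Responder 21 included, were 3 of 6 regenerating-fibre genes, 6 of 9 myogenic regulators and 5 of 8 cardiac genes. These counts include genes that were high in most arrays and fell in Responder 21. The regulator Pax3 had a median of 11.10 and stood at -6.00 there, and the cardiac list gene Nppb had 11.79 and -5.98. None of the 7 keratinocyte genes, 4 peripheral nerve genes or 8 melanocyte genes was raised by 2 or more in any array, carrying or not. This count therefore does not set the carrying arrays apart. Medians of melanocyte genes reached 14.22, where the highest value in the data was 14.84, which leaves little room for a rise. In the carrying arrays the list means ran from -0.15 to 0.39 for keratinocyte and from -0.44 to 0.32 for nerve genes. Adipocyte genes averaged from -0.41 to 2.13 in carrying arrays, and were highest in Responder 20 (4.88), which does not carry the set.

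The Responder against NonResponder comparison asks how shrinking and growing tumours differ under the same antibody. None of the 37 muscle genes was called, although 47% of all 18193 genes were (17.2% higher and 29.8% lower in Responder; limma over all 90 arrays with group and title series as terms, Benjamini-Hochberg adjusted p under 0.05). No muscle gene reached an unadjusted p under 0.05 either, where 55.7% of all genes did. Of the 37, 14 were higher and 23 lower in Responder, with a median difference of -0.03 on the log2 scale, against -0.06 over all genes. Acta1 differed by -0.42 ± 0.80 (SE, limma adjusted p = 0.672), Myh4 by -0.33 ± 0.72 (adjusted p = 0.712) and Myh7 by 0.09 ± 0.28 (adjusted p = 0.795). The smallest adjusted p among the 37 was 0.169, for Tpm2 at 0.39 ± 0.24. Standard errors were large, and the median residual SD of the 37 genes was 1.55, at the 99.84th percentile of all genes.

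The direction of the means differed between the title series. In the larger series 35 of 37 genes had a lower mean in Responder (median -0.59), and in the smaller series 36 of 37 had a higher one (median 0.73). The genes were raised together in the carrying arrays, so such counts, here and in the other comparisons, are not independent observations. The median fell to 0.07, with 25 of 37 higher, when Responder 21 was left out of the smaller series, a setting added after the data were seen. Differences of group medians were smaller, with -0.19 and 0.04 as the midpoints over the 37 genes. The test of the difference between series (an interaction in limma) called none of the 37, and 0% of all genes. In that test 36 of 37 values were positive, with a median of 1.33, and 2 genes had an unadjusted p under 0.05, Tnnt1 (1.08) and Ryr1 (1.66), both with a limma adjusted p of 0.356. Over all genes 13.3% had an unadjusted p under 0.05 in this test.

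Some other settings placed some muscle genes lower in Responder. Robust regression called 8 of 37 lower, against 36.4% of all genes: Ckm (-0.62), Myh2, Myl2, Myl3, Mylk2, Pgam2, Tcap and Tnni1. Ranks over the 90 arrays called 5 lower, Actn3, Ckm, Myh2, Myl3 and Mylpf, against 32.7%. Quantile normalisation called 1 lower, Mb, against 26.5%. Array weights called none of the 37, where 37.5% of all genes were lower. All 4 shares lie below that of all genes.

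Further muscle genes and marker genes of other cells are read against the shares of all genes in the same comparison, 17.2% higher and 29.8% lower. Of 9 further fibre-type genes 2 were higher in Responder, the slow tropomyosin Tpm3 (0.17) and the calcium pump Atp2a2 (0.21), neither of which was raised in any array. Their levels did not follow the muscle set: they were high in every array (lowest 12.15 and 11.23). In Responder 21 they stood at -0.22 and -0.20 against their medians. Of 13 further Z disc and M band genes 2 were lower, Synpo2l (-0.19) and Ankrd2 (-0.33), and of 16 excitation and membrane genes 2 were lower, Jph1 (-0.15) and Cacnb1 (-0.11). Of 15 energy genes the glycogen synthase Gys1 was higher (0.37) and the fatty acid carrier Fabp3 lower (-0.89), and of 9 myogenic regulators Mef2a was higher (0.23) and Pax7 lower (-0.16). Of 10 smooth muscle and pericyte genes 3 were higher, Smtn (0.45), the smooth muscle actin Acta2 (0.56) and the smooth muscle myosin Myh11 (0.25), and none lower. Of 8 melanocyte genes 2 were lower, Gpr143 (-0.69) and Pmel (-0.93), and of 6 adipocyte genes none was called, with a median of 0.68. Lower calls were also made for 4 of 8 cardiac, 3 of 7 keratinocyte, 1 of 6 regenerating-fibre and 1 of 6 lymph node and B cell genes, and for none of 4 nerve genes. The mean of the smooth muscle genes above their medians ran from -0.40 to 1.44 in Responder and from -0.44 to 0.48 in NonResponder, and that of the melanocyte genes from -3.49 to 0.31 and from -1.78 to 0.34. Their part in the muscle values was not tested.

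Responder against control IgG compares shrinking tumours with tumours given the control IgG. Of the 37 genes 1 was lower and none higher, where 37.3% of all genes were called and 22.8% were lower. That gene was Mb, at -0.13 ± 0.05 (limma adjusted p = 0.0312), through the flat probe set described above. The call was lost when control IgG 6, 10, 11 or 12 was left out, and the sign turned with the mean of both Mb probe sets (0.06) or with the wider probe set (0.26). Ckm differed by -0.98 ± 0.63 (adjusted p = 0.205), Acta1 by -1.03 ± 0.97 (adjusted p = 0.397) and Myh4 by -0.97 ± 0.87 (adjusted p = 0.370). The median over the 37 was -0.16 (all genes -0.06), and -0.43 in direct comparison within the larger series, where 33 of 37 were lower. Ranks called 14 of 37 lower, against 26.7% of all genes, and robust regression 9, against 32.1%. Array weights called 2, Mb and, higher, Neb, against 61.6% in either direction. Called by both ranks and robust regression were Ckm, Eno3, Mb, Myl3, Myot, Pgam2, Pygm and Tcap.

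NonResponder against control IgG, which shares the control arrays with the previous comparison, called none of the 37 genes and 0% of all genes. No muscle gene had an unadjusted p under 0.05. The median difference was -0.21 (all genes 0.00), and -0.01 within the larger series, where 16 genes were higher and 21 lower. Acta1 differed by -0.61 ± 1.0 and Myh4 by -0.64 ± 0.90, with a limma adjusted p of 0.9996 for both.

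Relapse against NonResponder, which compares regrown tumours with tumours that kept growing and shares its NonResponder arrays with the first comparison, called none of the 37, where 20.3% of all genes were called. Lower values were found for 31 of 37 genes, with a median of -0.28 (all genes -0.06). All 8 slow genes were lower and 13 of the 14 fast ones. The slow troponin Tnni1 differed by -0.65 ± 0.39 (limma adjusted p = 0.187) and Mylk2 by -0.37 ± 0.24 (adjusted p = 0.229). Both were called lower by robust regression (24% of all genes lower), by ranks (14.8%), with array weights (33%) and without the 7 arrays of low correlation (24.3%). When Responder 21 was left out, Mylk2 was called (14% of all genes lower). Within the larger series the median was 0.02 (19 genes higher) and within the smaller -0.40 (5 higher), with 3 Relapse arrays in each.

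The control treatments could be compared directly only in the larger series, with 14 control IgG and 3 PBS arrays. None of the 37 genes was called, where 0.0055% of all genes were. All 11 thick filament genes and all 7 Z disc genes were lower in control IgG, and 34 of the 37 in all, with a median of -0.78 (all genes 0.01). Acta1 differed by -2.53 ± 1.79 (limma adjusted p = 0.9998). These values rest on few PBS arrays: the median was -0.17 without PBS 1 and -1.43 without PBS 2. Array weights called 9 genes lower, Acta1 (-3.62) among them, against 6.24% of all genes (the estimate of the weights stopped short of its convergence tolerance), and robust regression 3 (Casq1, Myl2 and Pygm), against 0.0495%.

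The GrowthDelay and Stabilization groups, of 2 and 3 arrays, are described without a test. GrowthDelay 2 had 6 genes raised by 2 or more, with Acta1 at 10.07 and Myh1 at 7.84, and GrowthDelay 1 had none. Stabilization 2 carried the set with 31 genes, Stabilization 1 had 6 and Stabilization 3 none. In Stabilization 1 the fast genes averaged 1.68 and the slow genes 0.03 above their medians, and in Stabilization 2 the averages were 5.75 and 2.23.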

How the data were processed

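RNA of 90 tumour samples was hybridised to mouse expression arrays, with 800 ng of RNA as input per the labels' protocols. The authors deposited log2 values of 45101 probe sets, made with RMA per the submitters' processing notes, which also name limma. Versions, the scanner and the depth of signal over background are not given in the sources used here, and the number of arrays limits the precision. Probe sets were named from the platform annotation: 34945 had 1 symbol, 932 had several and 9160 had none, and 64 control probe sets were left out. Each of 18193 genes was represented by its probe set of highest mean.

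Differences were tested with limma 3.58.1 in R 4.3.3 (linear models with empirical Bayes moderation, 90 arrays, group and title series as terms, Benjamini-Hochberg adjustment over all 18193 genes, threshold 0.05). Other steps used Python 3.11.15 and pandas 2.3.3. On simulated data for Responder against NonResponder with 18193 genes, 80% of changes of 0.5 and 99% of changes of 1 (log2) were recovered, with 9 false calls. These shares are over genes drawn from all genes and do not apply to the muscle genes, whose spread is far larger than that of most genes. A gene was raised where it stood 2 or more above its median.

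The genes and lists were chosen with earlier results of these data known. Values by group are given for a fixed set of members and any member called; from the 13 other lists, at most the 3 genes of smallest p in Responder against NonResponder and the 3 of widest range are named, and Cox6a2. Alternatives tried were the model without title series, either title series alone, quantile normalisation, median centring, a filter on dim genes, the mean of probe sets, the probe set of widest range, robust regression, ranks, array weights (whose estimation stopped before convergence), leaving out the arrays of low correlation, and leaving out each array. Group numbers identify arrays only, in accession order. Promoters came from RefSeq (GRCm38.p6).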

Additional observations from a re-analysis of the deposited data

Results flagged for a closer look

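Single arrays stood far from the rest of their group in 5 of 44 tests of a gene in a group of 6 or 7 arrays (Dixon's test), which flags about 1 in 20 groups by chance. In PBS, Myh2 was 7.51 in PBS 1, where the next array had 5.45. In the same array Myh7 was 6.33 (next 5.32) and Des was 8.74 (next 7.49). PBS 1 is the PBS array that carries the muscle set. In Relapse, Des was 8.96 in Relapse 2, which also carries the set (next 7.42). Tpm2 was 9.46 in Relapse 3 (next 8.45), an array that does not carry the set.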

How the results depend on the processing

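For Responder against NonResponder the number of the 37 genes called went from 0 to 1 with quantile normalisation (Mb, -0.11), to 8 with robust regression and to 5 with ranks. For Responder against control IgG it went from 1 to 0 without title series in the model, with median centring, with dim genes left out, with the mean of probe sets and with the probe set of widest range, and to 9 with robust regression, 14 with ranks and 2 with array weights (Mb, and Neb higher). For Relapse against NonResponder it went from 0 to 3 with robust regression and to 2 with ranks, with array weights and without the 7 arrays of low correlation. For control IgG against PBS it went from 0 to 3 with robust regression and to 9 with array weights. The number of arrays carrying the set went from 13 to 22 with 1 above the median, to 8 with 3 above it and to 22 with 10 genes in place of 19. With dim genes left out, genes whose mean is under the median over all genes are not tested, so fewer than 37 may remain there. The cause of these changes was not tested.

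Signs turned in Responder against NonResponder for Ckm (0.19), Acta1 (0.57) and Myh4 (0.97) in the smaller title series alone, and for Myh7 in the larger alone (-0.24), with robust regression (-0.13), with array weights (-0.036) and without the arrays of low correlation (-0.17). In Responder against control IgG, Mb turned to 0.062 with the mean of probe sets and to 0.26 with the probe set of widest range. The settings with the widest-range probe set, and the smaller series without Responder 21, were chosen after seeing the data.

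With each array left out in turn, the median difference of the 37 genes ran from -0.31 (without Responder 21) to 0.07 (without NonResponder 3) for Responder against NonResponder and from -0.38 (without Responder 14) to -0.03 (without control IgG 1) for Responder against control IgG. It ran from -0.37 (without NonResponder 3) to 0.01 (without control IgG 7) for NonResponder against control IgG, from -0.79 (without Relapse 2) to -0.02 (without Relapse 6) for Relapse against NonResponder, and from -1.43 to -0.17 for control IgG against PBS. The number called stayed at 0, except for 0 to 1 in Responder against control IgG and 0 to 1 in Relapse against NonResponder (Mylk2, without Responder 21). Mb in Responder against control IgG ran from -0.15 to -0.11. No paired analysis was possible because the titles are running numbers and replicate numbers follow accession order.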

Other observations

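Adipoq, the hormone gene of fat cells, was raised in 21 arrays, 2 of which carry the muscle set, as 13 of all 90 arrays do. Among arrays that carry the muscle set, adipocyte genes averaged 2.13 above their medians in Responder 21 and 1.67 in Stabilization 2. Responder 20 and NonResponder 14, where adipocyte genes averaged 4.88 and 2.79 above their medians, also had high lymph node and B cell genes (4.94 and 4.69) and low melanocyte genes (-3.43 and -1.78), and neither carries the muscle set. Relapse 4, with 14 muscle genes raised, had an adipocyte mean of 3.02, and Responder 24, Responder 25 and control IgG 17, with 16, 18 and 14 raised, had means of 1.92, 1.89 and 1.80.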
